A study of Mus musculus with 28 samples.

Results

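Intergenic accessible regions far from genes were examined in purified Müller cells, the main glia of the mouse retina. A region was taken when it lay on chromosomes 1 to 19, was made of at most 3 overlapping peak rows, and had its summit outside all genes and at least 50 kb from the nearest transcription start site (TSS) of the GENCODE M21 annotation (mm10). This gave 2175 of 45198 autosomal regions (4.81%, 95% Wilson interval 4.62% to 5.01%) in the control list and 3415 of 63598 (5.37%, 5.20% to 5.55%) in the db/db list. All of them were chosen by the position of the summit and the number of rows, not by the height of their signal. The summit of a merged region was that of its row with the highest signal.

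The study profiled open chromatin by omni-ATAC-seq, in which a transposase cuts accessible DNA, in 6-month-old wild-type (WT) and db/db mice. Mice of the db/db genotype carry a mutated leptin receptor gene (Lepr) on the BKS background and develop obesity and type 2 diabetes, and the paper also counts db/+ mice among its controls. Müller cells were enriched by magnetic sorting for CD29 after CD11b and CD31 positive cells had been removed, a fraction in which some astrocytes and photoreceptors can remain. There were 2 samples of each genotype, but only 1 peak list of each is analysed here, so no difference between the genotypes has a replicate check and none was tested. All intervals cover counting error only. Read depth is unknown, and neither the peak caller nor its threshold is given in the sources used here.

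Markers of the labelled cell type and of other cell types were looked up at promoters. The share of all genes with a region within 1 kb of a TSS was not computed. The counts that follow therefore do not show how pure the sort was. All 10 Müller cell markers, among them the glutamine synthetase gene Glul and Rlbp1, had a region within 1 kb of a TSS in both lists. So did all 10 rod markers in the control list and 8 of them in the db/db list. Of the other lists, a region was seen for 2 of 3 astrocyte, 3 of 5 bipolar cell, 1 of 5 microglial and 1 of 5 vascular markers in each list. For cone markers this was so for 2 and 1 of 4, and for amacrine and ganglion cell markers for 1 and 2 of 5, in the control and the db/db list. How far rod or other nuclei contribute to the regions described here was not tested, because a peak list does not tell which cells were open.

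Accessible DNA far from any promoter usually marks enhancers, insulators bound by CTCF, or starts of transcripts that are not annotated. Enhancers bind transcription factors and can act on a gene over long distances by looping. Long stretches without coding genes, called gene deserts, often flank developmental regulators, and those around Sox9 are a textbook case of distant control. The nearest gene is therefore only a landmark, and no target gene is assigned here.

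Sequence could be read for a small set of these regions, those whose summit and the 50 bases on each side lie in a promoter window of RefSeq (GRCm38.p6). These are starts of predicted genes that RefSeq lists and GENCODE M21 does not. They are shown as the only members whose letters could be inspected, not as typical ones. Over both lists they were 18 loci, 13 of them read at the control summit. Capitals mark matches, on either strand, to short strings known as binding sites: TTGGCA (NFI half-site), ATTGTT (SOX), TGANTCA (AP-1), GGAATG (TEAD), GGATTA (CRX and OTX), TAATTA (homeodomain), AGGTGGC or AGGGGGC (CTCF core) and, added after the sequences had been seen, AGATGGC or AGAGGGC. Sequences run 5′ to 3′ on the strand of the predicted gene.
Gm41484, chr16:87246649-87246749, minus strand, in the desert from Adamts5 to N6amt1: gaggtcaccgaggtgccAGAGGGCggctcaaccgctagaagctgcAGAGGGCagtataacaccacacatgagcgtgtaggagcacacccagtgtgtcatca
Gm46645, chr19:15340395-15340495, minus strand, between Tle4 and Psat1: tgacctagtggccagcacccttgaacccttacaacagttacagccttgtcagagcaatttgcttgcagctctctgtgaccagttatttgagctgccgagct
Gm36149, chr5:111490812-111490912, plus strand, between Mn1 and Gm26897: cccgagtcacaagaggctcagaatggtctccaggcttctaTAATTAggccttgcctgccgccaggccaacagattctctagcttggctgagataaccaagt
Gm33315, chr13:52829025-52829125, plus strand, between Syk and Auh: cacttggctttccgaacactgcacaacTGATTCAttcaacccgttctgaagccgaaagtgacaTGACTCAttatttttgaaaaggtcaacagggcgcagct
Gm30107, chr8:114081230-114081330, minus strand, between Adamts18 and Nudt7: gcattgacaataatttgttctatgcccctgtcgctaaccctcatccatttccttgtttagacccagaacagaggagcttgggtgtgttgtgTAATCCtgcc
Gm32833, chr13:42403398-42403498, minus strand, between Edn1 and Phactr1: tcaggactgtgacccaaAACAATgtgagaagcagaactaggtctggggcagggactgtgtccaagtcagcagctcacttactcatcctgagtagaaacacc
Gm35815, chr2:178680533-178680633, plus strand, between Cdh26 and Cdh4: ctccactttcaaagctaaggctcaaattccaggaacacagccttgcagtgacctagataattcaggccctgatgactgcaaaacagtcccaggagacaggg
Gm8541, chr2:63575248-63575348, minus strand, between Kcnh7 and Fign: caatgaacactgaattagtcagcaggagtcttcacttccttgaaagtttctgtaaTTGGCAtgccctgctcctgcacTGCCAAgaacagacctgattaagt
Gm33327, db/db list only, chr5:106802510-106802610, plus strand, between Zfp644 and Hfm1: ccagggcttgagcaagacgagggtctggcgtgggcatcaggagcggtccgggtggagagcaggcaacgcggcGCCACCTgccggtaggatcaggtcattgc
Gm30158, db/db list only, chr11:111512549-111512649, minus strand, between Kcnj2 and Sox9: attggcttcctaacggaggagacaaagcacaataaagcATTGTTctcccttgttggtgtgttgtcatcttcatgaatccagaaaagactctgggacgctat

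The windows were poorer in GC than those of all accessible regions with a summit in a RefSeq promoter window. Their median GC content was 50.0% over the 18 loci, against 66.3% over 6898 windows of the same length cut around the summits of all regions that lie in a RefSeq promoter window. Of the 18 loci, 11 held a match to one of the strings other than the pair added afterwards, and such a match was present in 20.4% of the 6898 windows. At the summit where each locus was read, none held matches to more than 1 kind. At its db/db summit, Gm33315 held an NFI half-site beside its 2 AP-1 strings. TEAD strings were in 3 loci (3.19% of all windows), NFI half-sites in 2 (3.65%), SOX strings in 2 (1.01%), and CRX or OTX strings in 1 (1.67%). AP-1 strings were in 1 locus, Gm33315, which held 2 copies (1.55% of all windows held any). The homeodomain string was in 1 locus (0.304%). The first pair of CTCF core strings was in 1 locus (10.4%) and the added pair in 1, Gm41484, with 2 copies (7.23%). The palindromic motif of the glucocorticoid receptor was in none of the 18, which allows a share of up to 16.7%, and in 0.101% of all windows. With so few loci these counts describe single sequences and set no share for far intergenic regions. The 6898 windows lie at RefSeq promoters and were not matched for GC, so they are no background of distal regions. The summits of a shared region can differ by some bases between the lists, which moves a string at the edge of a window in or out.

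The printed loci differed in signal. Here and below, signals of both lists are given, but their scale between lists is not stated. A difference in signal between the lists is therefore not read as a change. Gm41484, with both AGAGGGC strings, had a signal (fold enrichment at the summit) of 17.0 in the control and 16.4 in the db/db list. Gm33315 stood at 10.7 and 8.79, and Gm8541, with a pair of NFI half-sites, was low in both at 5.67 and 5.62. Gm33327 and Gm30158 were found in the db/db list only, at 9.33 and 5.33. Gm46645 lay farthest from an annotated TSS, at 340 kb, with signals of 13.5 and 14.8.

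Far intergenic regions were sparse on the chromosomes. Sequence that could hold such a summit, outside genes and at least 50 kb from every TSS, made up 373.6 Mb, or 15.5% of the 2404 Mb spanned by the annotation. It held 5.82 regions per Mb in the control and 9.14 per Mb in the db/db list, against 21.1 and 29.6 regions per Mb in the rest. The regions together covered 1.51 Mb and 2.18 Mb. Among chromosomes, chromosome 13 was the most densely occupied in both lists, at 8.30 and 12.8 per Mb. The lowest density was on chromosome 6 in the control list (3.94 per Mb) and on chromosome 14 in the db/db list (6.41 per Mb).

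Density fell with distance from the nearest TSS. Control regions numbered 7.28 per Mb at 50 to 75 kb, 5.14 at 100 to 150 kb and 2.40 at 300 kb or more, and db/db regions 11.5, 8.08 and 4.06 per Mb. The fall was not smooth, since the bin from 200 to 300 kb (4.37 and 7.37 per Mb) was above the bin from 150 to 200 kb (4.03 and 6.74) in both lists. Signal did not fall in the same way. The median signal rank, the percentile of a region among all autosomal regions of its list, was 52.2 at 50 to 75 kb and 62.4 at 300 kb or more in the control list, and 50.3 and 58.3 in the db/db list. The last bin held only 29 and 49 regions.

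Far intergenic regions were of middling signal. Their median signal was 11.1 in the control list (quartiles 8.44 and 14.3, n = 2175), a median rank of 53.9. In the db/db list it was 8.78 (6.43 and 12.4, n = 3415), a median rank of 51.6. Promoter regions, within 1 kb of a TSS, ranked higher, at 71.2 and 70.6. Regions in genes but over 1 kb from a TSS ranked lower, at 40.4 and 41.3, and regions outside genes at 1 to 50 kb at 47.4 and 48.3. Both ends of the scale were thinly filled: 7.40% of the control and 8.73% of the db/db regions were in the top 10% by signal, and 4.78% and 5.33% in the bottom 10%.

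This order depended on the value used. Ranked by −log10 p instead of signal, far intergenic regions had a median rank of 41.3 in the control and 41.9 in the db/db list, close to regions at 1 to 50 kb (41.4 and 44.0). The promoters stayed at 77.0 and 76.5. Far intergenic regions thus stood above the regions at 1 to 50 kb by fold enrichment only.

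They were also narrower than promoter regions. Median width was 681 bp in the control and 607 bp in the db/db list, with a range of 218 to 1834 bp and 175 to 1723 bp. Promoter regions had medians of 872 and 838 bp, and gene-internal distal regions 642 and 585 bp. A single peak row made up 61.1% and 61.6% of the far intergenic regions, against 39.2% and 42.5% of the promoters of at most 3 rows. At the limit of 3 rows, 210 control and 304 db/db regions were just inside, and 75 and 124 far regions of more rows were outside. The latter were wider, with medians of 1376 and 1329 bp, at a median signal of 9.81 and 8.69.

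**Figure D1:**
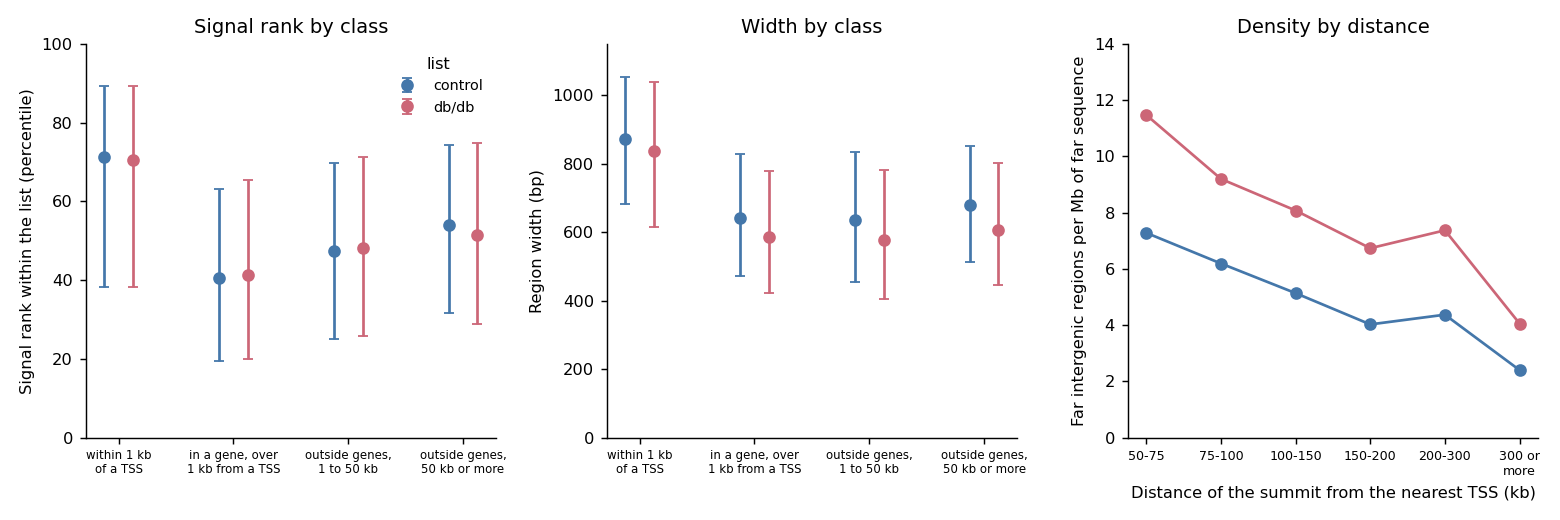
Signal rank (left) and width in bp (middle) of regions of at most 3 rows in 4 position classes, as medians with bars from the lower to the upper quartile, and the number of far intergenic regions per Mb of far sequence by distance from the nearest TSS in kb (right), for the control (blue) and db/db (red) lists. Regions outside genes at 50 kb or more have a median rank of 53.9 and 51.6, below promoters and above the other distal classes, and their density falls from 7.28 and 11.5 to 2.40 and 4.06 per Mb.

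The strongest far intergenic regions of each list were also found in the other. Highest of all was chr1:102628113-102628398, between Cntnap5b, a neurexin-family adhesion gene, and the cadherin gene Cdh20, 2142.3 and 2140.3 kb away. Its signal was 49.0 in the control and 48.6 in the db/db list. At 286 bp it was less wide than most. The next, chr6:9889881-9890223 between the neurexophilin gene Nxph1 and Ndufa4, had signals of 34.9 and 33.3 and was 343 bp wide. Both had ranks of at least 99.97 in either list.

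Below these came chr3:39443140-39443866 between the atypical cadherin gene Fat4 and Intu, at 28.5 and 26.2. On chromosome 13, chr13:7924132-7924927 between Pfkp and Adarb2 stood at 26.9 and 24.5, and on chromosome 9, chr9:12434032-12434663 between Cntn5 and Jrkl at 26.4 and 24.9. The db/db list had 2 others among its first 5, chr9:66646286-66646636 between Usp3 and Car12 (26.1, and 24.5 in the control) and chr10:124910574-124911132 between Fam19a2 and Slc16a7 (26.1 and 25.7). The largest change in rank among these 7 regions was 1.35 points. Regions chosen for the highest signal lie near the top of the scale, which leaves little room for a rise.

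The region farthest from any TSS was chr1:114570621-114571371, 606.7 kb away, in the desert between Dsel and Cntnap5a. Its signal was 11.3 in the control and 11.7 in the db/db list. A stronger one, chr1:114528310-114529072, lay in the same desert at 564.6 kb, with 19.6 and 19.0. Between Cobl and Pom121l12, chr11:13657171-13658012 lay at 504.6 kb with 12.4 and 10.7, and its neighbour chr11:13649593-13650639, found in the db/db list only, at 512.2 kb with 8.79. On chromosome 2, regions at 483.8 kb (11.3 and 9.09) and 467.3 kb (12.3 and 11.5) lay between Bmp2, a bone morphogenetic protein, and Hao1, and between Zeb2 and Acvr2a. On chromosome 6 a db/db-only region between Nxph1 and Ndufa4 lay at 492.0 kb with a signal of 9.01.

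At the limit of 50 kb, the closest control region inside was 50014 bp from the TSS of Rhoj, with a signal of 14.1, and the closest outside, at 49986 bp, had 13.0. In the db/db list the closest inside was at 50000 bp with 6.98, and the closest outside at 49977 bp with 4.49.

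Gene deserts were defined as gaps of at least 500 kb between neighbouring protein-coding genes. There were 601, and 583 of them contained far sequence, together 300.2 Mb or 80.4% of all of it. They held 1380 of the 2175 control regions (63.4%, 95% Wilson interval 61.4% to 65.4%) and 2233 of the 3415 db/db regions (65.4%, 63.8% to 67.0%). Deserts therefore held fewer of the regions than their share of far sequence, at 4.60 and 7.44 per Mb, while shorter gaps made up the rest. The number per desert varied widely: 14 deserts held 10 or more control regions and 52 held 10 or more db/db regions. With the db/db list reduced to as many autosomal regions as the control list, by −log10 p, the numbers were 14 and 20. At the other end, 106 deserts with 27.3 Mb of far sequence held none in either list.

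The same deserts led both lists, 9 of the first 10 being shared. In the control list the tenth place, with 11 regions, was tied between 3 deserts, of which the first by position is named. The desert between Celf4, coding for an RNA-binding protein of neurons, and Pik3c3, a lipid kinase of autophagy, held 17 control and 23 db/db regions over 4.52 Mb on chromosome 18. Between Epha7, an ephrin receptor, and Map3k7, the kinase TAK1, there were 16 and 23 on chromosome 4. The desert between the zinc-finger gene Sall1 and Tox3, both coding for nuclear DNA-binding proteins, held 14 and 22 on chromosome 8. It was the only one of the 11 named deserts with a flanking gene from the transcription factor families listed.

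Adamts5, a protease of the extracellular matrix, and N6amt1 bounded a desert with 13 and 22 regions on chromosome 16. The desert from Sel1l, of endoplasmic reticulum quality control, to Flrt2, an adhesion and guidance receptor, held 17 and 21 on chromosome 12. Between Fam98a and Crim1, a membrane protein that binds bone morphogenetic proteins, there were 12 and 21 on chromosome 17. Auts2 to Castor2 on chromosome 5 held 9 and 20, and Lcorl to the axon guidance gene Slit2, on the same chromosome, 12 and 19. The desert from the anion exchanger gene Slc4a3 to the ephrin receptor gene Epha4 on chromosome 1 held the most control regions, 18, and 19 in db/db. On chromosome 10, Tmpo to Nedd1 held 14 and 18, and on chromosome 13, Gadd45g to Diras2 held 11 and 13.

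Counts partly followed the size of a desert. Per Mb of far sequence, Tmpo to Nedd1 was the densest of the 11 (43.5 and 56.0), followed by Gadd45g to Diras2 (39.7 and 46.9). The 2 largest, Celf4 to Pik3c3 and Sel1l to Flrt2, had only 7.43 and 10.0 per Mb and 7.46 and 9.22 per Mb. Among deserts with at least 10 db/db regions, Kif2a to Ndufaf2 on chromosome 13 reached 57.0 and 97.8 per Mb with 7 and 12 regions, and Lyplal1 to Tgfb2 on chromosome 1 reached 51.1 and 85.1 with 9 and 15. Both had little far sequence, 0.123 and 0.176 Mb. Among deserts with no region in either list, those with the most far sequence were Cadm2 to Speer2 (1.37 Mb of far sequence), Csmd3 to Trps1 (1.23 Mb) and Pot1a to Grm8 (1.07 Mb). They lie on chromosomes 16, 15 and 6.

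**Figure D2:**
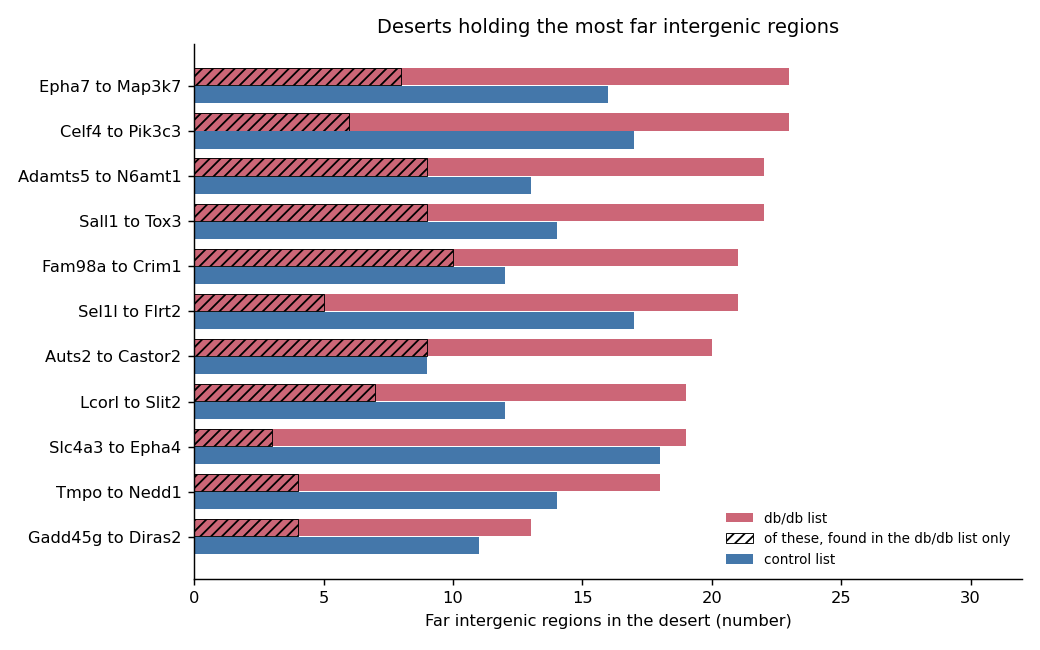
Number of far intergenic regions in each of the 11 named deserts, in the control list (blue bars) and the db/db list (red bars), with the part found in the db/db list only hatched. Counts run from 9 to 18 in the control and from 13 to 23 in the db/db list, and every desert has more in the db/db list. That list holds more far intergenic regions as a whole (3415 against 2175), and the deserts were chosen for high counts in either list.

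Positions within a desert are described here and below. A far intergenic region can lie only in far sequence, which was 0.664 Mb of the 1.45 Mb from Adamts5 to N6amt1. Whether regions were unevenly placed within the far sequence of a desert was not tested. In the desert from Adamts5 to N6amt1, 6 of the 13 control regions lay within 100 kb, from 552.4 to 642.6 kb beyond Adamts5. Their signals were 13.3, 16.0, 17.8, 22.8, 20.4 and 12.1, and the same 6 had 13.6, 17.8, 18.4, 20.6, 18.7 and 11.6 in the db/db list. This run held the strongest region of the desert, chr16:86531853-86532545. All 9 db/db-only regions of the desert were weaker than these 6, with signals from 4.90 to 9.25. The Gm41484 sequence printed above comes from the opposite end, 1344.9 kb beyond Adamts5.

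In the desert from Tmpo to Nedd1 all regions lay between 320.3 and 840.0 kb beyond Tmpo. Within it, 6 control and 8 db/db regions fell in the stretch from 797.6 to 840.0 kb. No region of that desert reached the top 10% of its list. The desert from Sall1 to Tox3 was filled mainly on the side of Tox3, with the strongest region, chr8:89913956-89914565, 332.8 kb from Tox3 at a signal of 19.0 in the control and 19.6 in the db/db list. A stretch of 439.4 kb without far intergenic control regions lay in that desert, and one of 956.5 kb in the desert from Celf4 to Pik3c3. Whether these stretches held control regions of other classes was not examined.

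Other strong desert regions were also found in both lists, and the signal in each is given. In Epha7 to Map3k7, chr4:29742684-29743186 had 26.1 in the control and 24.9 in the db/db list. In Celf4 to Pik3c3, chr18:26753390-26754392 had 20.1 and 21.1, and in Slc4a3 to Epha4, chr1:75738368-75739461 had 17.9 and 17.4. The leading region was not the same in both lists in every desert. From Sel1l to Flrt2, chr12:92353274-92353897 led in the control (22.5, and 17.3 in db/db) and chr12:92375342-92376163 in db/db (24.0, and 19.3 in the control). From Fam98a to Crim1, chr17:77843702-77844534 led in the control (22.6, and 19.89 in db/db) and chr17:77102869-77103694 in db/db (19.99, and 17.4 in the control). The leader also differed from Auts2 to Castor2, where the highest signals were 19.98 in the control and 18.8 in the db/db list.

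**Figure D3:**
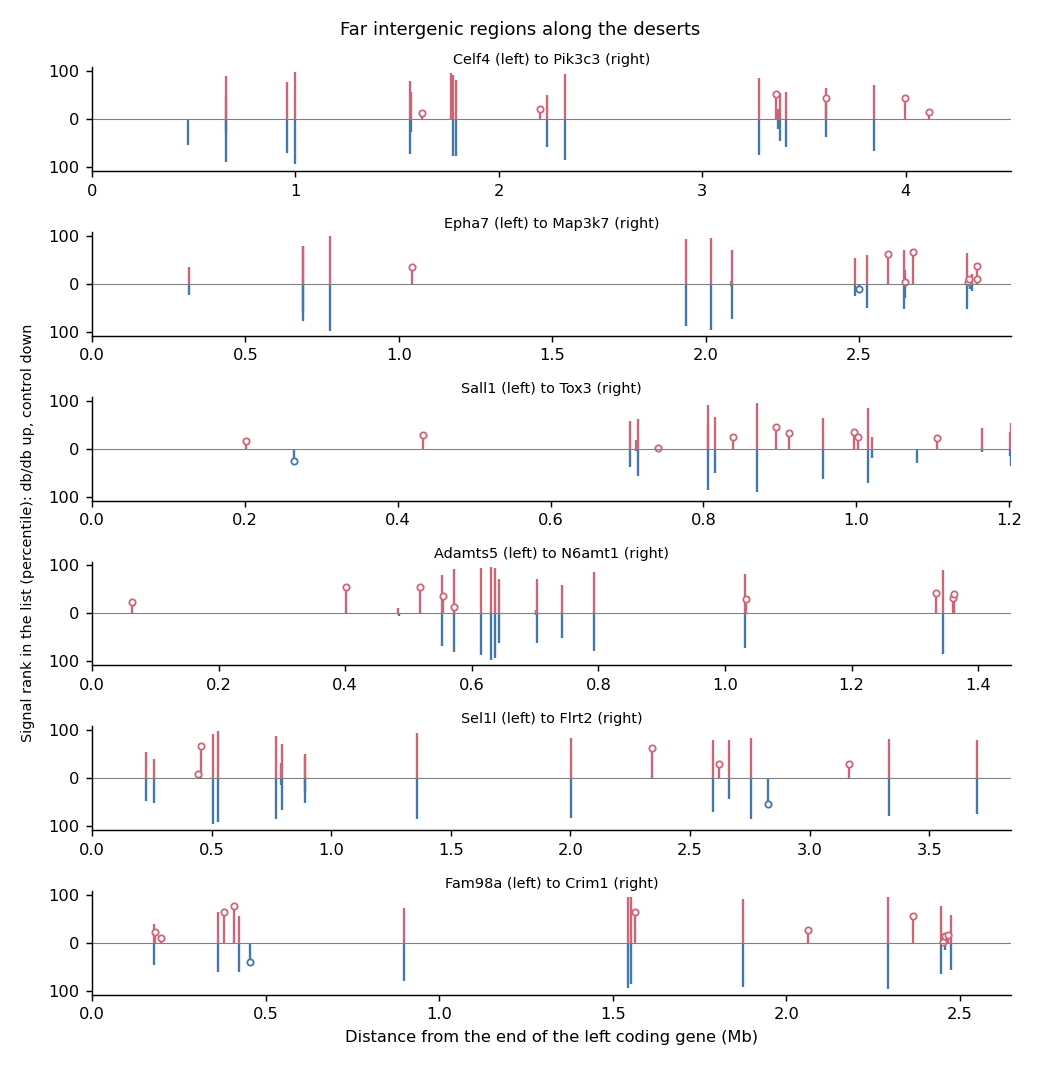
Positions of far intergenic regions along the 6 deserts with the most regions in the db/db list, as distance in Mb from the end of the left coding gene. Line length is the signal rank (percentile) in the db/db list (red, upward) and the control list (blue, downward), and open circles mark regions found in 1 list only, which sit mostly on short lines between taller shared ones.

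Over all far intergenic regions, in deserts or not, the median distance to the nearest other far intergenic region was 42.9 kb in the control and 21.8 kb in the db/db list, and 25.0% and 32.7% lay within 10 kb of another. The db/db list has more of these regions in the same far sequence (3415 against 2175). Distances were not computed at equal list length and are therefore not compared between the lists. A gap of 402 kb between Chd7, a chromatin remodeller, and Clvs1 on chromosome 4, too short to count as a desert, held 12 and 15 in only 0.169 Mb of far sequence. This gap was picked after its counts were seen. Of its regions, 11 and 13 lay within 100 kb, from 131.1 to 229.6 kb beyond Chd7, with ranks from 2.45 to 71.1 in the control list. The highest signal there, 14.1 in the control, was of a region 268.3 kb beyond Chd7.

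Gaps next to regulators of Müller cells were described from a list of 27 genes. Their gaps held 1.95% of the far sequence and 52 control regions (2.39% of all, 1.83% to 3.12%) and 96 db/db regions (2.81%, 2.31% to 3.42%). The regions were found in 16 of the 21 such gaps with far sequence. Their median rank, 55.6 and 49.6, was close to that of all far intergenic regions. Found in 1 list only were 1 of the control regions (1.92%) and 45 of the db/db regions (46.9%). These shares were 4.32% and 39.4% over all far intergenic regions, and 4.07% and 31.4% over all autosomal regions. The counts by gene below are small and are to be read beside these shares.

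Sox9, a transcription factor that Müller cells need for their identity, had far regions on both sides. Between Kcnj2, a potassium channel gene, and Sox9 there were 4 control and 12 db/db regions over 1.71 Mb. The control signals were 6.38, 13.9, 19.4 and 22.2 at 572.6, 294.1, 280.2 and 189.4 kb from Sox9. The latter 3 were shared, with 15.9, 18.7 and 20.1 in the db/db list. The region at 572.6 kb was found in the control list only. In the db/db list 9 further regions were seen, all with signals from 4.55 to 9.33, and the one at Gm30158 printed above is among them.

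On the opposite side, between Sox9 and Slc39a11, there were 6 control and 12 db/db regions in 0.457 Mb. The 6 control regions, at 8.37, 11.0, 11.2, 11.2, 6.39 and 9.19 from 137.5 to 243.8 kb beyond Sox9, were all shared. Their db/db signals were 9.11, 10.4, 11.1, 11.0, 5.27 and 7.99. The other 6 db/db regions lay among them with signals from 2.65 to 6.74. On both sides the strongest regions were shared ones, and all db/db-only regions were below the median rank of their list except the one at 9.33, with a rank of 55.9.

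Sox2, another such factor, was followed by a gap with 0.277 Mb of far sequence in 1.10 Mb. Between Sox2 and Atp11b, 10 control and 12 db/db regions were found, and 8 in each list lay from 432.2 to 526.5 kb beyond Sox2. All 10 control regions were shared, where only 4.32% of all control far intergenic regions were found in that list only. Signals of the 10 ran from 9.44 to 15.1 in the control and from 8.33 to 15.9 in the db/db list. The 2 db/db-only regions stood at 5.02 and 10.7.

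Nfib, of the NFI factors that act in glial differentiation, had 7 control and 8 db/db regions in its gap with Mpdz. Of these, 6 lay together in each list, 664.6 to 722.0 kb from Nfib in the control, with control signals from 5.26 to 12.9. The 7 control regions were all shared. Near Zeb2, a zinc-finger factor, 6 control and 13 db/db regions were spread over the 3.70 Mb desert to Acvr2a. Between Rnf144b and the gene of the inhibitor Id4 there were 3 and 8. The control regions there, at 16.1, 19.9 and 10.4, were closer to Rnf144b, at least 711.4 kb from Id4, and the 5 db/db-only regions had 4.04 to 6.11. Beside Meis1 and Meis2 there were 5 and 6 in the gap from Meis1 to Spred2 and 4 and 5 in the gap from Meis2 to Tmco5.

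Few of these regions, and little of the far sequence, lay next to cell type markers. Of the Müller cell markers, Sox9 and the glutamate transporter gene Slc1a3 had such regions, 13 control and 30 db/db in all with those of Sox9 given above. They were 0.598% and 0.878% of the far intergenic regions in 0.336% of the far sequence. Their density was 10.4 and 23.9 per Mb, against 5.82 and 9.14 over all far sequence. Of the 30, 18 (60.0%) were db/db-only, against 39.4% of all far intergenic and 31.4% of all autosomal regions. Slc1a3 had 2 and 5 in its gap with Ranbp3l, at 9.70 and 9.68 in the control and 10.3 and 10.3 in the db/db list for the shared ones. No far sequence lay next to any of the rod, bipolar cell, astrocyte or microglial markers, and none of the regions lay next to the cone markers. Gaps of the amacrine and ganglion cell markers held 0 control and 3 db/db regions (2 by Tfap2b and 1 by Pou4f1, all in the db/db list only). Their density was 0 and 4.62 per Mb. A gap of the vascular markers held 6 and 11, at 9.06 and 16.6 per Mb. The levels of other retinal cell types in the sort therefore cannot be read from the neighbours of these regions.

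Broader gene families differed in density. Gaps flanked by transcription factor families (281 genes) held 230 control regions, 6.78 per Mb, and 377 db/db regions, 11.1 per Mb. This was 10.6% (95% Wilson interval 9.35% to 11.9%) and 11.0% (10.0% to 12.1%) of the regions in 9.08% of the far sequence. Gaps flanked by cadherins and protocadherins, adhesion genes that often sit beside large deserts, held 75 (2.40 per Mb) and 160 (5.11 per Mb), or 3.45% and 4.69% of the regions in 8.38% of the far sequence. Olfactory, vomeronasal and taste receptor gaps held 9 and 14 in 1.37 Mb, 6.57 and 10.2 per Mb. Neighbouring regions share a gap, so these intervals are too narrow.

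Most control regions were also present in the db/db list. An overlap of 1 bp or more with a region from the other genotype made a region shared. Only 94 control regions (4.32%, 95% Wilson interval 3.54% to 5.26%) were found in the control list only, against 4.07% of all autosomal control regions. In the db/db list 1347 regions (39.4%, 37.8% to 41.1%) were found in that list only, against 31.4% of all autosomal db/db regions. The db/db list is longer as a whole, and how far depth or the threshold of the caller sets this difference cannot be told apart from genotype with 1 list each. With the db/db list reduced to equal length, as for the deserts, the 2 shares were 16.0% of the control and 17.4% of the db/db far intergenic regions, against 13.1% and 12.9% of all autosomal regions.

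Among position classes, the db/db-only share of far intergenic regions equalled that of gene-internal distal regions (39.4%), and was above regions at 1 to 50 kb (35.9%) and promoters (15.2%). It depended strongly on signal. Of the db/db regions in the lowest 10% by signal 79.7% were found in that list only, falling to 47.2% in the fifth step of 10% and 1.34% in the highest. All autosomal regions went from 69.8% through 33.3% to 0.393%. At equal signal the far intergenic share was the higher one in each of the 10 steps, though in the eighth and the ninth its interval (5.01% to 10.2% and 1.78% to 5.60%) included the value of all regions. From the signal alone 29.9% would have been db/db-only, so the observed share was 1.32 times that (1.26 to 1.37). With steps of −log10 p, an alternative chosen after seeing the data, the ratio was 1.05 (1.01 to 1.10). For the control-only share it was 1.23 by signal and 0.872 by −log10 p.

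**Figure D4:**
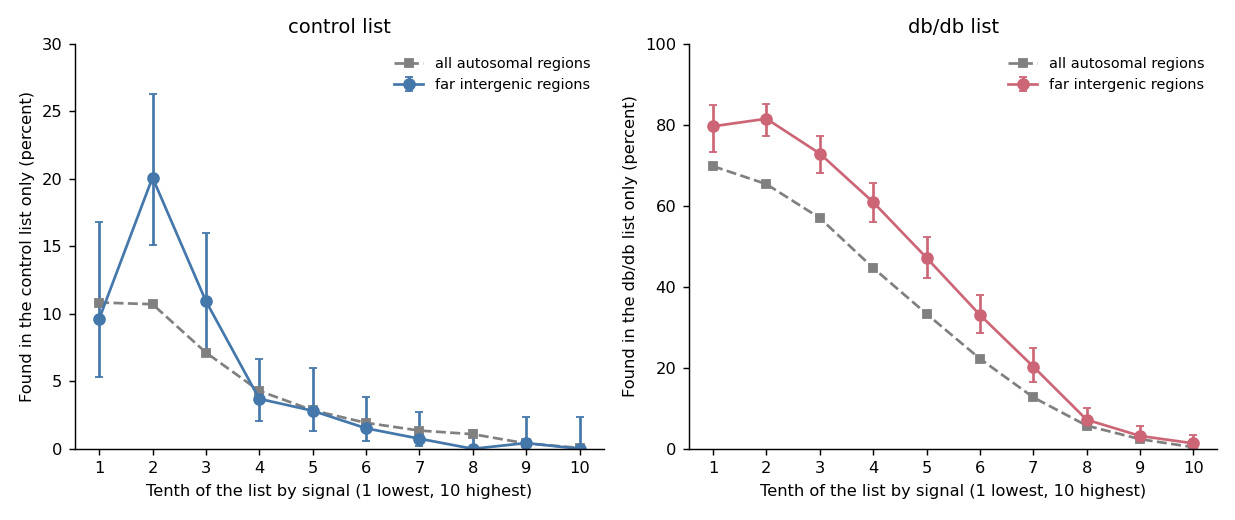
Percent of far intergenic regions found in 1 list only, by step of 10% of the signal from lowest (1) to highest (10), for the control list (left) and the db/db list (right); bars are 95% Wilson intervals and grey squares are all autosomal regions. The db/db share falls from 79.7% to 1.34% and lies above the grey line at every step; the vertical scales differ between panels.

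A few of the regions found in 1 list only were strong. In the db/db list the highest was chr4:28176762-28177098 between Manea and Epha7, with a signal of 19.2 and a rank of 95.1. It was followed by chr5:126324587-126325192 between Tmem132b and Tmem132c at 17.3, chr17:65049983-65050896 between 4930583I09Rik and Tmem232 at 17.2, and chr7:129167600-129168171 between Sec23ip and Plpp4 at 16.8. These 4 had ranks from 90.5 to 95.1.

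Control-only regions were far fewer than db/db-only ones (94 against 1347), and their highest signals were lower. The highest values of sets so unequal in size are not a comparison of the lists. The first was chr1:125100446-125101066 between Dpp10 and Actr3, at a signal of 16.5 and a rank of 83.2. The next 4 stood at 13.1, 12.4, 11.8 and 11.1. They lay between Nubpl and Arhgap5 (chr12:52350304-52350748), between Trib2 and Lpin1 (chr12:16424949-16425592), between the homeobox gene Zfhx4 and Pex2 (chr3:5450486-5451142), and between Xylt1 and Rps15a (chr7:118025656-118026641).

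By desert, Tenm2 to Mat2b on chromosome 11 held the most db/db-only regions, 11 of its 17, followed by Plekhb2 to Hs6st1 on chromosome 1 (10 of 16) and Fam98a to Crim1 (10 of 21). Over all far intergenic regions of the db/db list the share was 39.4%, and over all its autosomal regions 31.4%. No desert held more than 2 control-only regions. Chromosomes ranged from 34.2% db/db-only on chromosome 7 to 51.6% on chromosome 19.

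Shared regions were compared by rank within their list. Of the far intergenic regions, 2006 had a single partner that was also a far intergenic region. Their median rank was 55.8 in the control and 69.3 in the db/db list. The median change was 9.34 points (95% interval 8.73 to 9.95, SD 10.9 over regions), against 8.56 over 42625 autosomal regions with a single partner. The db/db list is longer, and the regions found there only are mostly of low rank, which moves the ranks of shared regions up. When ranks were taken among the 42625 pairs only, an alternative chosen after seeing the data, the median change was 0.918 points (0.558 to 1.40).

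A rank higher by 20 points or more in the db/db list was seen for 374 regions, or 18.6%, against 16.7% of all autosomal regions with a single partner. A rank lower by as much was seen for 12, or 0.598%, against 0.838%. Both shares were close to the background. Ranked among the pairs, 85 were higher (4.24%, against 3.20% of all pairs) and 58 lower (2.89%, against 3.26%) by that much. The ranks in both lists went together, with a Pearson correlation of 0.903 across the 2006 regions, which are not independent replicates, and 0.921 across all pairs.

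The largest upward difference in rank, from control to db/db, was at chr13:73405765-73406229 between Mrpl36 and Lpcat1, from a signal of 8.12 (rank 28.7) to 13.2 (rank 78.7). Regions between Gpr158 and Myo3a (chr2:21941194-21941629) and between Nmur2 and the glutamate receptor gene Gria1 (chr11:56159473-56159773) both had 8.38 in the control and 13.5 in the db/db list. A region 888.8 kb before Myc, chr15:61096427-61096736, stood at 7.60 and 11.7, and chr8:101159277-101160016 between Cdh8 and Cdh11 at 8.30 and 12.9. Of the printed sequences, Gm35815 had the widest shift, from a rank of 17.9 to 51.1.

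The largest downward difference in rank was at chr10:109183697-109184294 between the synaptotagmin gene Syt1 and Nav3, from a signal of 11.4 (rank 56.4) to 5.25 (rank 16.0). Next came chr13:104540709-104541442 between Adamts6 and Cwc27, from 13.3 to 6.35. A region between Cpsf2 and Slc24a4, chr12:102029741-102030362, started among the top 10% of the control list and went from 19.4 to 9.33. The last 2 lay between Tbc1d22a and Fam19a5 (chr15:86811670-86812426, 11.9 to 6.10) and between Actn1 and Dcaf5 (chr12:80323665-80324153, 12.1 to 6.66).

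**Figure D5:**
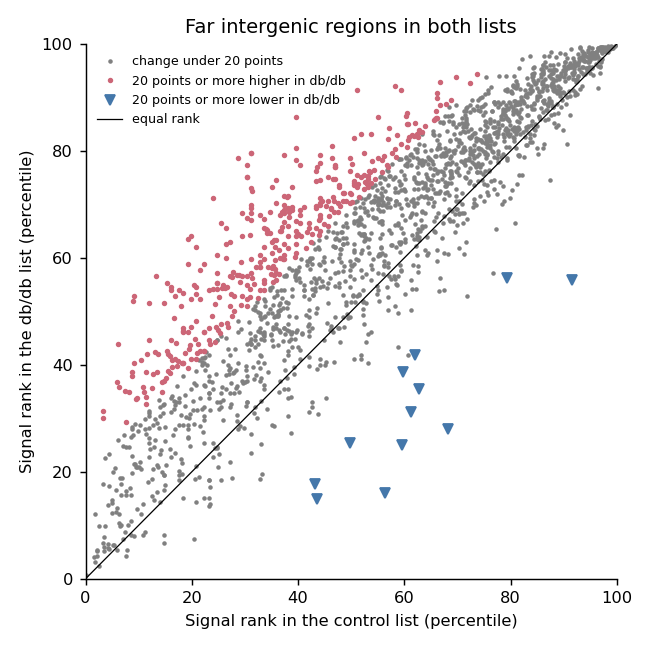
Signal rank (percentile) in the control list (horizontal) against the db/db list (vertical) for the 2006 far intergenic regions with 1 partner each; red points are higher and blue triangles lower in db/db by 20 points or more, and the line marks equal rank. Most points lie above the line, with a median change of 9.34 points, and 374 are red against 12 blue.

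Some of these regions were not intergenic in another annotation. In RefSeq, 243 control (11.2%) and 365 db/db regions (10.7%) had their summit inside a gene that GENCODE M21 does not list there, and 27 and 36 overlapped a RefSeq promoter window. Their median rank was 49.8 and 50.3, against 54.2 and 51.6 for the others.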

How the data were processed

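Müller cells were purified and profiled by omni-ATAC-seq with 2 × 50 bp reads in 2 samples of each genotype. One list of peaks per genotype was used, deposited with the first sample of each, so that no paired or replicated fit was possible. RNA-seq samples were not used here. The deposited columns are, per peak, the authors' score of at most 1000, a signal (a ratio, the fold enrichment at the summit) and the peak caller's p and q as −log10. The aligner, the peak caller, its threshold and any pooling are not given in the sources used here, and the paper's differential accessibility and motif analyses were not repeated. The score was not used. Per the submitters' processing notes the build is mm10; 33.1% of control and 27.1% of db/db summits lay within 1 kb of a GENCODE M21 TSS, against 9.35% and 8.94% after a shift of 5000 bp.

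Overlapping rows were merged, keeping the row with the highest signal. Signals were ranked within a list as percentiles, since their scale between lists is not stated. Intervals are 95% Wilson intervals, and those of medians are from order statistics. Steps were tested on simulated regions with known answers. Tools were Python 3.11.15, numpy 2.4.6, pandas 2.3.3, scipy 1.17.1 and matplotlib 3.10.9.

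The rule, the gene lists and the motif strings were chosen with earlier results of these data known. Named were the 5 regions with the highest signal, the 5 farthest from a TSS and the 5 strongest of 1 list only in each list, the 5 largest rises and falls in rank, those at the limits, the 10 deserts with the most regions per list, and genes of the marker and regulator lists. One of the db/db-only regions so chosen is not reported here. A motif search over all members was planned but needs a genome sequence, which was not used here. Promoter windows of RefSeq took its place, a choice made with the data in view. Alternatives were another distance, gene set, number of rows, q threshold, overlap, rank, desert definition and equal list lengths.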

Additional observations from a re-analysis of the deposited data

How the results depend on the processing

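Counts and shares followed the definition. With 100 kb in place of 50 kb, 759 control and 1228 db/db regions remained (1.68% and 1.93% of the lists), with a median control rank of 56.2, a db/db-only ratio of 1.39 to the share expected from signal, 82.7% and 83.0% in deserts, and 6 and 15 deserts with 10 or more. With protein-coding genes only there were 6872 and 10596 (15.2% and 16.7%), the ratio was 1.25, 53.5% and 54.2% lay in deserts, and 126 and 233 deserts held 10 or more. Regions of any number of rows made up 5.56% of the db/db list. The rank by −log10 p had medians of 41.3 and 41.9. In lists of equal numbers 16.0% and 17.4% were found in 1 list only, the ratios were 1.45 and 1.43, and 20 deserts held 10 or more db/db regions. Gaps between genes of any type left 10.4% and 11.4% in deserts, with 1 and 8 of 10 or more regions. Gaps of at least 1 Mb, chosen after seeing the data, held 36.6% and 37.3%. Steps of −log10 p, also added then, gave ratios of 0.872 and 1.05. Ranked among the shared far intergenic regions alone the median change was 0 points, which the construction gives, with 94 higher and 94 lower by 20 points or more. Ranked among all autosomal pairs it was 0.918, with 85 and 58. At a threshold of 10 points 957 were higher and 35 lower. Of 87 values computed under the alternatives, 45 stayed inside the interval of the reported value or, for counts, within 1.5 times. The median change in rank kept its sign or was 0. The control-only ratio, above 1 by signal, was below 1 by −log10 p (0.715 to 1.06), and the median ranks, above 50 by signal, were below 50 by −log10 p, with the db/db value then the higher one, within the intervals of both. No paired analysis was possible because only a single list of each genotype was used. Depth is unknown, so a region found in 1 list only may be present but below the threshold in the other.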
